A study of Arabidopsis thaliana with 9 samples.

Results

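Transcript levels in cultures of the Arabidopsis thaliana agl15 agl18 double mutant were compared with those in Columbia wild type, using the 3 double mutant and 3 wild type arrays of a series of 9. All 22746 probe sets other than control probe sets were tested, and the results are described for the 13270 nuclear genes that had a probe set of their own in the annotation used here. Both genotypes were grown from seed in shaken liquid medium that held the auxin 2,4-D at 4.5 µM, MES at 10 mM and 2% sucrose, in days of 23 h light, and were frozen after 10 days. The double mutant carries the alleles agl15-4 and agl18-1. The third genotype, 35S:AGL15, which expresses AGL15 from a constitutive viral promoter, was grown in the same way and is set beside single genes below. The titles call the arrays biological replicates but do not say whether cultures were kept apart, so p-values measure the spread between these arrays. The labels do not say whether embryo tissue was separated from the rest of the seedlings. By the description of the series, the double mutant forms fewer somatic embryos at the shoot apex than wild type. The comparison asks which transcripts differ when both genes are disrupted.

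AGL15 and AGL18 encode related MADS-domain transcription factors, proteins that bind CArG-type DNA motifs and act in plant embryos and in the control of flowering time. In culture on 2,4-D the shoot apex of a germinating seed can give rise to somatic embryos, which resemble zygotic embryos but arise from non-sexual cells. In such bulk samples, fewer cells of a type and less RNA per cell cannot be told apart.

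The arrays of the genotypes differed in their overall distribution. Median intensity was 188 to 199 on the wild type arrays and 132 to 142 on the double mutant arrays, although all arrays had the same trimmed mean of 500. Between 81.6% and 84.5% of probe sets lay above the background level, the brightest of 27 Bacillus control probe sets on an array, in wild type, against 69.2% to 78.7% in the double mutant. The correlation of log2 intensity was 0.960 to 0.964 within wild type, 0.952 to 0.959 within the double mutant and 0.924 to 0.937 between them. The spike-in control probe sets were 1.66-fold and the 25S ribosomal RNA control 1.86-fold brighter in the double mutant, and their part in the results was not tested beyond scaling on the spike-in controls. Changes are given on the deposited scale, and a gene is said to have risen or fallen where its adjusted p was under 0.05 in the same direction on the deposited scale and after quantile normalization. Among the marker genes that were measured, the embryo regulator BBM lay above background on all 6 arrays (486 ± 84.2 in wild type and 506 ± 60.4 in the double mutant, SD, n = 3). Of 3 shoot meristem genes, PHV and LAS lay above background on all 6 arrays and the stem cell peptide gene CLV3 below it on all 6. Of 3 stomatal regulators, SPCH and MUTE lay below it on all 6 arrays, and FMA lay above it on 3 wild type arrays and 1 double mutant array (58.1 ± 2.45 against 28 ± 22.1, log2 change −1.34, adjusted p = 0.0884). Of 3 root markers, the root hair expansins EXPA7 and EXPA18 lay above it on all 6 arrays and AGL42 on 3 wild type arrays and 1 double mutant array (log2 change −0.11, adjusted p = 0.877).

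Of the mutated genes, AGL18 has a probe set of its own in the annotation used here. Its intensity was 171, 177 and 189 on the wild type arrays and 113, 68.5 and 62.6 on the double mutant arrays. The groups did not overlap, and all 6 arrays lay above background. The log2 change was −1.19 (SE 0.29, adjusted p = 0.0266) on the deposited scale and −0.67 (adjusted p = 0.2) after quantile normalization, so the call held on only one of the scalings. It also ended without double mutant replicate 2 (−1.09) or 3 (−1.02) and without wild type replicate 1 (−1.22), 2 (−1.19) or 3 (−1.14). Where the probe set lies relative to the mutation is not given in the sources used here.

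AGL65 fell (log2 change −1.39, adjusted p = 0.00836) and so did AGL21, a regulator of root growth (−2.99, adjusted p = 0.0278), each with 2 of 3 double mutant arrays above background. The call of AGL21 ended without any single wild type array. AGL16, a regulator of flowering and stomata, had 142, 167 and 175 in wild type and 84.7, 80.1 and 58.4 in the double mutant. Its arrays did not overlap, but it was called on the deposited scale only (−1.13, adjusted p = 0.0117, against −0.60, adjusted p = 0.0753). AT1G30260 rose from 33.1, 22.9 and 31.1 to 132, 87.2 and 58.9 (log2 change 1.62, adjusted p = 0.012), a call that ended without wild type replicate 2 or under spike-in scaling. The reference gene table describes this locus as AGAMOUS-like 79 but gives the symbol AGL79 to another, AT3G30260, which lay below background on all 6 arrays.

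Of the 13270 nuclear genes, 1943 were lower in the double mutant (14.6%) and 462 were higher (3.48%) on the deposited scale. Of all 22746 probe sets, 18.9% were called, 3.90% higher and 15.0% lower, and for 46.1% the arrays of the genotypes did not overlap. On both scalings 1160 genes were lower (8.74%) and 395 were higher (2.98%). The arrays of the genotypes did not overlap for 43.7% of all nuclear genes, and for every gene called on both scalings. The median fall was 3.01-fold and 330 of the 1160 genes fell more than 4-fold, whereas the median rise was 2.03-fold and 52 of the 395 rose more than 4-fold. The counts depended on single arrays: genes lower on both scalings numbered 656, 446 and 641 without wild type replicates 1, 2 and 3, and 608 without double mutant replicate 3. Genes higher on both scalings numbered 239, 205 and 142 without double mutant replicates 1, 2 and 3 and 197, 125 and 204 without wild type replicates 1, 2 and 3. Of genes with a symbol, 152 of 1472 were lower and 47 higher, and of genes with only a locus code 1008 of 11798 were lower and 348 higher. Of loci annotated as pseudogenes, 16 of 989 were lower and 12 higher, and 38 lay above background on all 6 arrays. Across chromosomes 1 to 5 the share of lower genes ran from 7.44% on chromosome 2 to 9.9% on chromosome 5, and that of higher genes from 2.55% on chromosome 5 to 3.2% on chromosome 1.

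**Figure D1:**
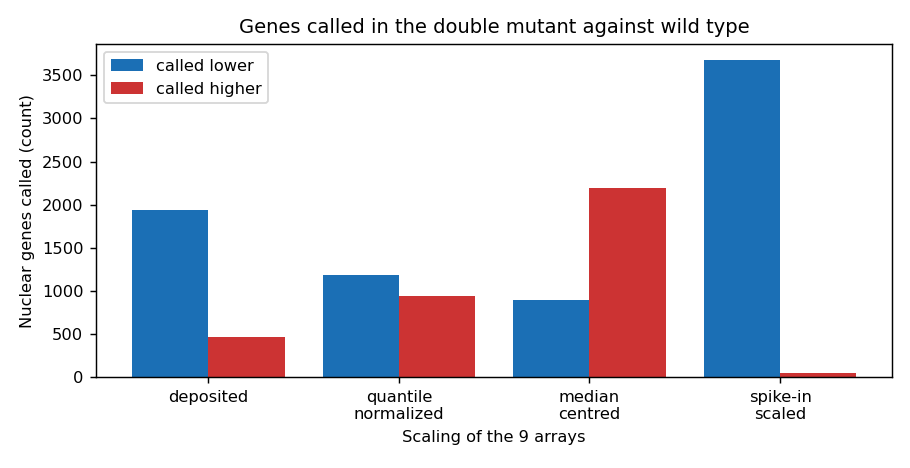
Bars count nuclear genes called in the double mutant against wild type (adjusted p under 0.05) under 4 scalings of the arrays, by direction. Lower calls outnumber higher ones on the deposited scale (1943 and 462) and less so after quantile normalization (1190 and 945), and the order turns under median centring (901 and 2194).

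The split between higher and lower genes followed the scaling, as the plot of calls by scaling shows. Lower genes made up 80.8% of nuclear calls on the deposited scale, 55.7% after quantile normalization, 29.1% under median centring and 98.8% under spike-in scaling. The median log2 change of all nuclear genes was −0.15, 0.08, 0.37 and −0.88 under these scalings, and changes are read relative to them. Median centring and spike-in scaling move all genes of an array alike, so a sign that turns under them follows from that shift. Under all 16 alternatives other than removal of the length trend, 539 genes stayed lower and 14 stayed higher, of the 7301 genes that entered every fit. Of these 14, STZ was the only one with a symbol. AT2G07707, AT2G07741 and AT2G07777, also among the 14, lie in a chromosome 2 block that carries a copy of mitochondrial DNA and is set apart below.

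Among genes with a symbol and all 6 arrays above background, the 12 largest falls included genes of proteolysis, RNA processing, chromosome structure and the cytoskeleton. All 12 kept their call and direction under every alternative that was run. ALPHA-VPE, a vacuolar processing protease, had 2123, 1126 and 1095 in wild type and 208, 322 and 126 in the double mutant. It fell 6.75-fold (adjusted p = 0.00462), with wild type replicate 1 the highest. TGH, a G-patch protein of pre-mRNA splicing and microRNA processing, went from 398, 369.7 and 375 to 50.2, 62.6 and 58.4, a 6.7-fold fall (adjusted p = 0.00344). Its values were tight within each genotype and far apart between them. 3xHMG-box2 and 3xHMG-box1 encode HMG-box proteins that associate with chromosomes in mitosis. 3xHMG-box2 went from 1326 ± 171 to 244 ± 41.9 (SD, n = 3, log2 change −2.45, adjusted p = 0.00272). 3xHMG-box1 went from 216 ± 55.9 to 40.9 ± 12.9 (log2 change −2.41, adjusted p = 0.00361).

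PWD (AT4G24450), which the reference gene table describes only as a water dikinase, had 324, 321 and 338 in wild type and 57.6, 61 and 70.6 in the double mutant. This was a 5.21-fold fall (adjusted p = 0.00343). ZCF125, a gene with a kinesin motor, went from 291, 338 and 313 to 60.3, 59.5 and 67.7, a 5.02-fold fall (SE of the log2 change 0.17, adjusted p = 0.00173). Neither gene had overlapping groups. CFM3A, a splicing factor for chloroplast introns, fell 5.43-fold, NTMC2T6.1 5.02-fold and the SNF2-type chromatin remodelling gene CHR24 4.99-fold. The remaining falls were SBT4.12, a subtilase gene, and iqd32 and NET1A, whose families are described below. In 35S:AGL15 these genes did not follow a single pattern. SBT4.12 averaged 33.2 ± 12.8 and PWD 106 ± 51.1 there, and a difference from the double mutant was not called for either (adjusted p = 0.096 and 0.177). ZCF125 averaged 265 ± 38.7 in 35S:AGL15 against 314 ± 23.7 in wild type, and was lower in the double mutant than in 35S:AGL15 (log2 difference −2.08, adjusted p = 0.00214, beside 14.5% of nuclear genes called between these genotypes).

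**Figure D2:**
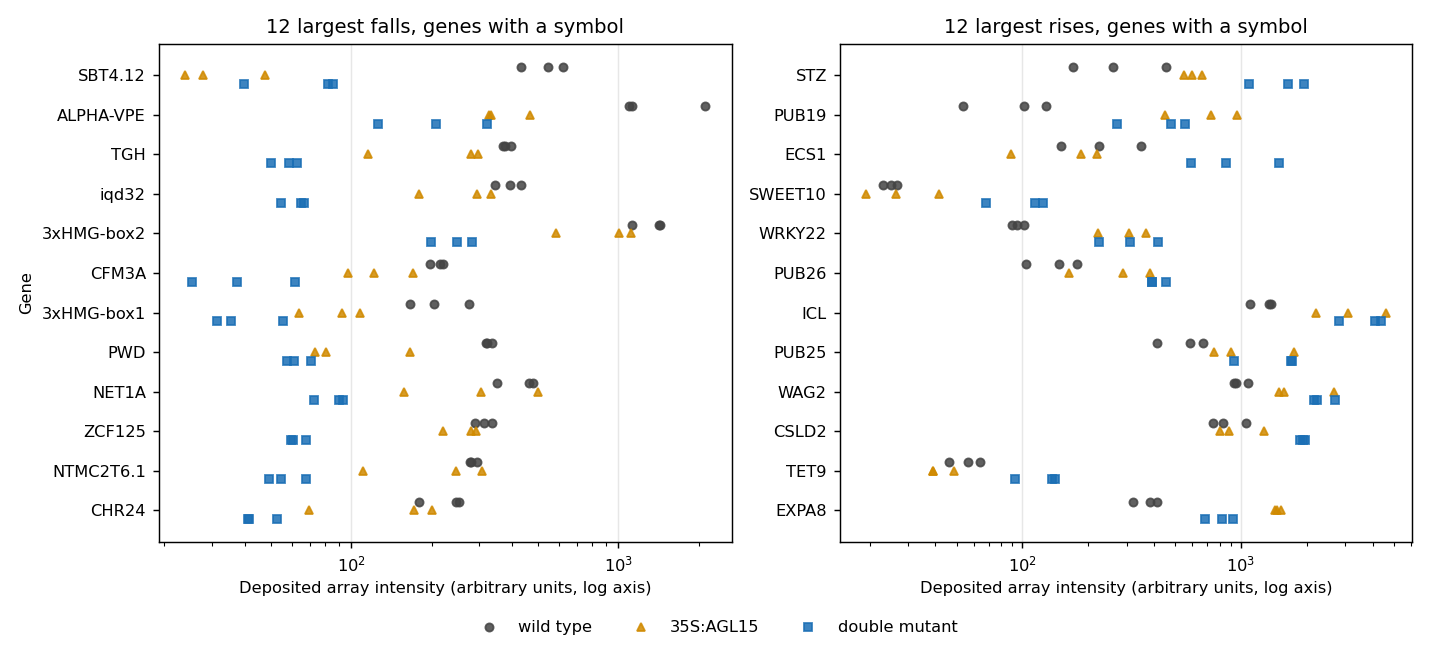
Each point is the deposited intensity of 1 array on a log axis, for wild type, 35S:AGL15 and the double mutant, 3 arrays each. For the 12 largest falls and the 12 largest rises among genes with a symbol, the wild type and double mutant arrays do not overlap, while the place of 35S:AGL15 varies from gene to gene.

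The 12 largest rises included genes of stress and defence response, sugar transport, fat use and cell wall growth. WRKY22, a transcription factor of immune signalling, had 102, 94.6 and 89.4 in wild type and 225, 419 and 309.6 in the double mutant, a 3.24-fold rise (adjusted p = 0.00647). ECS1, a cell wall protein gene linked to pathogen response, rose from 223, 348 and 150.2 to 1489, 588 and 853 (4-fold, adjusted p = 0.0248), with double mutant replicate 1 the highest. The sugar transporter gene SWEET10 had 23.1, 26.7 and 25 in wild type and 68.2, 114 and 124 in the double mutant, a 3.98-fold rise (adjusted p = 0.00696). All 3 genes had each double mutant array above each wild type array. ICL, the isocitrate lyase of the glyoxylate cycle that turns stored fat into sugar, rose 2.91-fold (1345, 1102 and 1372 against 2799.6, 4367 and 4095, adjusted p = 0.0121). WAG2, a protein kinase acting on auxin transport, rose 2.38-fold (988 ± 76.6 against 2354 ± 288, SD, n = 3, adjusted p = 0.0123).

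Rises in wall and membrane genes were smaller. CSLD2, a cellulose synthase-like gene of tip growth, rose 2.21-fold (875 ± 161 against 1915 ± 58, adjusted p = 0.0123). The expansin gene EXPA8, whose product loosens cell walls, rose 2.17-fold (371 ± 47 against 806 ± 116, adjusted p = 0.00611), and the tetraspanin gene TET9 2.21-fold (55.6 ± 8.92 against 124 ± 26.8, adjusted p = 0.0133). PUB19, PUB25, PUB26 and STZ made up the rest of the 12. Under spike-in scaling 11 of the 12 rises lost their call and STZ kept it. ECS1, PUB25 and PUB26 also lost their call in 4, 5 and 4 of the 6 omissions of an array, TET9 without double mutant replicate 3 or wild type replicate 2, and ICL, WAG2 and CSLD2 without wild type replicate 2. ECS1, SWEET10, CSLD2 and TET9 were higher in the double mutant than in 35S:AGL15 (log2 differences 2.57, 1.84, 0.99 and 1.54, adjusted p = 0.0149, 0.0135, 0.0262 and 0.00824). EXPA8 averaged 1475 ± 49.3 in 35S:AGL15 and was lower in the double mutant than there (log2 difference −0.88, adjusted p = 0.0186).

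Some genes were above background in every wild type array and below it in every double mutant array, so their fold is a bound set by the double mutant background. BGLU33, a beta-glucosidase gene, was at least 7.23-fold lower (257, 149.7 and 219 in wild type, adjusted p = 0.00446). MYR2, a MYB-related transcription factor gene, was at least 3.52-fold lower (78.7, 88.8 and 139, adjusted p = 0.0024) and the chromatin remodelling gene CHR23 at least 3.45-fold lower (118, 93.7 and 82.4, adjusted p = 0.0121). TRM24 was at least 3.01-fold lower, and the DNA helicase genes RECQ4B and RECQSIM at least 2.31-fold and 1.95-fold lower. The call of TRM24 ended in 3 omissions of an array (double mutant replicate 3, wild type replicates 1 and 3), and that of RECQ4B without wild type replicate 2 and with the length trend removed.

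Most nuclear genes on the array carry only a locus code here. Among those that the reference gene table describes, AT1G54410, an 11 kDa dehydrin, fell from 4434, 5836 and 7544 to 750.2, 1368 and 1115 (5.55-fold, adjusted p = 0.00277). AT1G28060, described as RNA-directed DNA methylation 16, fell 3.75-fold (adjusted p = 0.0187) and AT4G38900, basic leucine-zipper 29, 3.49-fold (adjusted p = 0.0132). Both of these calls ended without wild type replicate 2, and that of AT1G28060 in 3 other omissions. AT4G33150, an enzyme of lysine breakdown, changed by −1.56 on the log2 scale (adjusted p = 0.0036) and AT4G33060, cyclophilin 57, by −1.36 (adjusted p = 0.00981). AT1G53210, a sodium and calcium exchanger, rose from 2477, 2949.6 and 2779.8 to 5120.0, 5015 and 4436 (log2 change 0.83, adjusted p = 0.0104), a call that ended under spike-in scaling. The mediator subunit gene AT2G22370 rose by 0.73 (adjusted p = 0.017) on the deposited scale and was at −0.00222 under spike-in scaling, and its call also ended in 4 omissions of an array.

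Larger changes were found among locus codes that have no description here. The 6 largest in each direction with all arrays above background were chosen after their values were seen. Loci of the chromosome 2 block AT2G07660 to AT2G07839, set apart below, were left out of this choice. Called rises in that block reached a log2 change of 3.27 (AT2G07749). AT1G65570 fell from 1001, 1321 and 818 to 131, 94.2 and 51.8 (log2 change −3.57, adjusted p = 0.00232), while 35S:AGL15 averaged 1338 ± 328. AT2G14095 fell from 508, 523 and 386 to 41.8, 46 and 35.9 (−3.51, adjusted p = 0.00173). AT5G44380, AT3G58550, AT5G51840 and AT3G29075 had log2 changes of −3.07, −3.07, −3.06 and −3.03. The rises were AT5G50360 (2.85), AT3G10930 (2.77), AT2G34700 (2.54), AT2G25510 (2.40), AT1G04660 (2.37) and AT2G28400 (2.36). The call of AT1G04660 ended without double mutant replicate 3 and without wild type replicate 1 or 2. AT2G25510 had 822, 941 and 434 in wild type and 3349.6, 4088 and 3565 in the double mutant, and averaged 161 ± 85.5 in 35S:AGL15. It was higher in the double mutant than in wild type (adjusted p = 0.0114) and than in 35S:AGL15 (log2 difference 4.67, adjusted p = 0.00313). AT3G10930, by contrast, averaged 503 ± 39.3 in the double mutant and 537 ± 201 in 35S:AGL15, against 83 ± 50.7 in wild type.

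Gene families were then described by their members, 40 families in all with 577 genes, chosen after values of these data were seen. Members were matched by symbol among the 1472 nuclear genes with a symbol, so the counts do not cover whole families. Of these 1472 genes, 10.3% fell and 3.19% rose on both scalings, and the family counts are also read beside these shares. Most nuclear genes had a log2 change below 0 on the deposited scale (7662 of 13270), and so did most members of several cytoskeletal families. Of the 14 TON1 recruiting motif (TRM) genes, whose products bind microtubules and the division plane machinery, all 14 had negative log2 changes on the deposited scale and 5 fell on both scalings, beside 8.74% of nuclear genes. Their median was −1.26 on the deposited scale, −0.95 after quantile normalization, −0.75 under median centring and −2.00 under spike-in scaling, against the −0.15, 0.08, 0.37 and −0.88 of all nuclear genes. TRM28 had 322, 478 and 396 in wild type and 94, 89.3 and 72.6 in the double mutant (4.64-fold lower, adjusted p = 0.0076), and TRM19 had 533, 425 and 443 against 118, 121 and 109 (adjusted p = 0.0072). No array of one genotype reached those of the other.

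Of 15 IQ-domain genes, whose calmodulin-binding products associate with microtubules, 13 had negative changes and 6 fell on both scalings, beside 8.74% of nuclear genes. Their median was −0.77 on the deposited scale and was negative under all 4 scalings. iqd32 fell 6.31-fold (431, 394 and 347 against 54.6, 64.8 and 66.4, adjusted p = 0.00201) and IQD31 changed by −1.89 (1529, 1635 and 1601 against 329, 529.5 and 447, adjusted p = 0.00277). Both were also lower than in 35S:AGL15 (log2 differences −2.08 and −1.49, adjusted p = 0.00482 and 0.00771). Of 10 NET genes, which encode actin-binding proteins at membranes, 9 had negative changes. On both scalings 2 fell (NET1A and NET4B), beside 8.74% of nuclear genes. NET4B had 1104, 1118 and 1080.1 in wild type and 151, 357 and 294 in the double mutant and averaged 1069 ± 430.3 in 35S:AGL15 (log2 change −2.13, adjusted p = 0.0114). All 8 myosin XI, kinesin and MAP65 genes matched by symbol had negative changes on the deposited scale, and ZCF125 was not among them. KINESIN-12B, of the division apparatus, and ATMAP65-6 fell (−2.04 and −1.56, adjusted p = 0.012 and 0.00938). The 7 tubulin genes had log2 changes from −0.38 to 0.49 with adjusted p from 0.0899 to 0.933, and their median changed sign with the scaling, from −0.05 on the deposited scale to 0.46 under median centring. After quantile normalization TUA1 was called higher and TUB7 lower (adjusted p = 0.0228 and 0.04998).

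**Figure D3:**
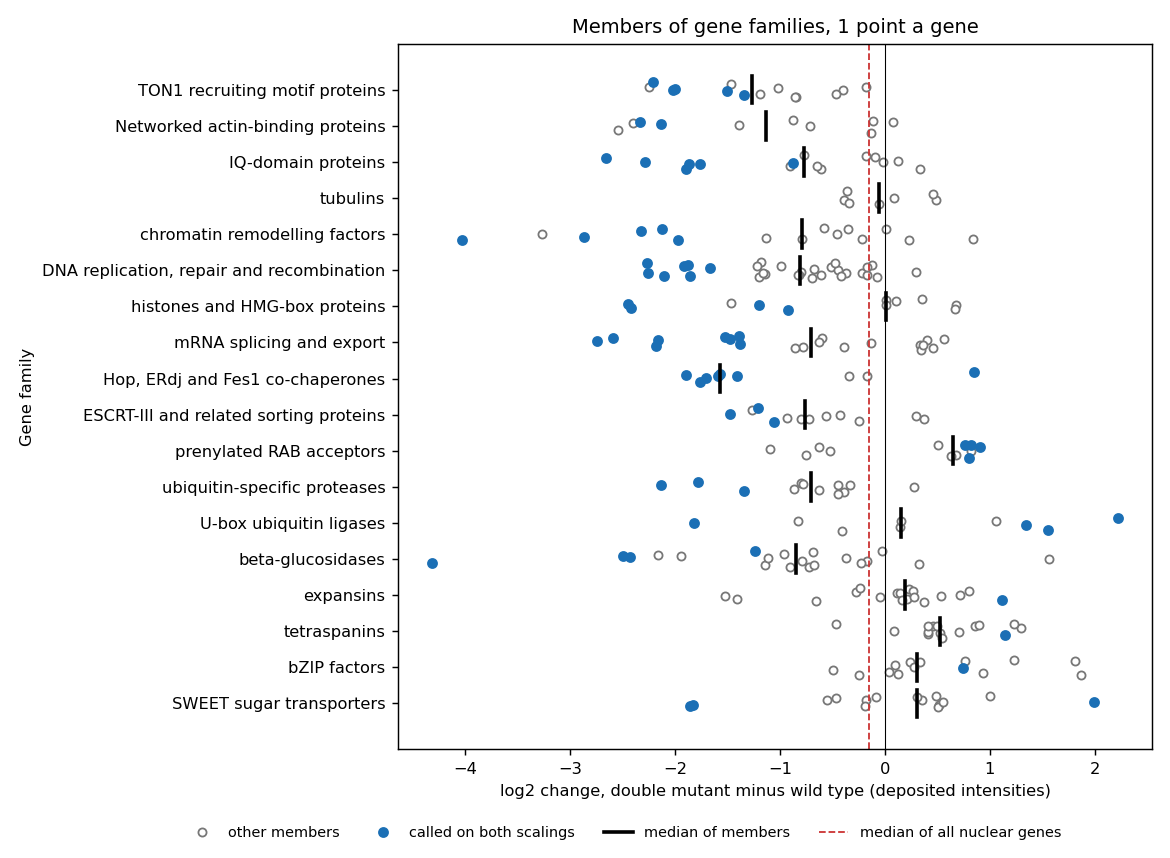
Each point is the log2 change of 1 gene, double mutant minus wild type, on the deposited scale, with calls on both scalings filled, bars at family medians and a dashed line at the median of all nuclear genes (−0.15). TON1 recruiting motif genes, co-chaperones and DNA replication genes lie mostly below that median, and prenylated RAB acceptors and tetraspanins mostly above it, though the medians of the last 2 families are negative under spike-in scaling (−0.08 and −0.21, against −0.88 for all nuclear genes).

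Genes of DNA replication, repair and recombination leaned the same way. Of 30 measured genes, 29 had negative changes on the deposited scale, beside 7662 of 13270 nuclear genes. On that scale 12 were called lower, beside 14.6% of nuclear genes, and 7 fell on both scalings, beside 8.74%. Their median was −0.81 and was negative under all 4 scalings. TOPII, DNA topoisomerase II, had 771, 783 and 757 in wild type and 198, 146 and 143 in the double mutant (4.8-fold lower, adjusted p = 0.0104). ICU2, the catalytic subunit of DNA polymerase alpha, had 319, 285 and 217 against 78, 47.1 and 49.3 (4.78-fold lower, adjusted p = 0.00691). Neither gene had overlapping groups. POLD3 and ATIM, and ATLIG4, a DNA ligase of end joining, also fell (log2 changes −1.91, −1.88 and −1.67), the call of POLD3 ending without wild type replicate 2. ICU2 and TOPII were also lower than in 35S:AGL15 (adjusted p = 0.0474 and 0.0292).

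Chromatin remodelling genes held 5 falls on both scalings among 15 measured, beside 8.74% of all nuclear genes. CHR17, an ISWI-type remodeller, had 1254, 1144 and 1092 in wild type and 366, 263 and 268 in the double mutant (log2 change −1.97, adjusted p = 0.00646). INO80 had a log2 change of −2.12 (adjusted p = 0.02), a call that ended in 5 of the 6 omissions of an array. SWC2, of the complex that exchanges histone H2A.Z, changed by −2.87 (adjusted p = 0.0068), with 2 of 3 double mutant arrays above background. Among histone and HMG-box genes, whose median of 0.01 changed sign with the scaling, HTB2, a histone H2B gene, and HON4 fell (−0.92 and −1.20, adjusted p = 0.0237 and 0.0118). HTB4 averaged 4531 and 4515, and HTB1 1564 and 2519 (adjusted p = 0.0604). HTB2 lost its call under median centring, with the replicate block and in 4 omissions. The 4 measured cell cycle genes had log2 changes of −0.54 to −0.20 and adjusted p of 0.0917 to 0.577, the range running from the Aurora kinase gene AUR1 to AUR2.

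Of 20 genes of mRNA splicing and export, 8 fell on both scalings, beside 8.74% of all nuclear genes, and 6 had positive changes on the deposited scale. The family median was −0.70 and was negative under all 4 scalings. CYP59, a cyclophilin with an RNA-binding domain, had 341, 317 and 308 in wild type and 34, 77.4 and 58 in the double mutant (−2.59, adjusted p = 0.00499, 2 of 3 double mutant arrays above background). ATO, a splicing factor subunit homologue, fell 4.52-fold (adjusted p = 0.00524). The mRNA export complex gene THO1 fell (479.6, 442 and 322 against 124, 173 and 134), a call that ended without wild type replicate 2. The genes with the symbol THO7 also fell, AT3G02950 by −1.39 on the log2 scale and AT5G16790 with all 3 double mutant arrays below background (at least 1.83-fold lower). The call of AT5G16790 ended when low values were raised to background. That of PRP39-2, another of the 8 falls, ended in all 6 omissions of an array. DDL, a forkhead-associated protein of small RNA processing, changed by −1.47 (adjusted p = 0.00277). Among 12 RNA polymerase subunit genes NRPB9A was the one that rose on both scalings, beside 2.98% of nuclear genes. It went from 157, 155 and 152 to 278, 244 and 233 (log2 change 0.70, adjusted p = 0.0167), and was at −0.03 under spike-in scaling. Its call also ended without any single wild type array.

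In protein folding and turnover, 6 of 9 Hop, ERdj and Fes1 co-chaperone genes fell and 1 rose, beside 8.74% and 2.98% of nuclear genes. Their median of −1.57 on the deposited scale was negative under all 4 scalings. Hop1 and Hop3, which link HSP70 to HSP90, both fell. Hop1 went from 1219.5, 986 and 769 to 305, 295 and 265 (adjusted p = 0.0124) and Hop3 from 216, 320.0 and 266 to 69.4, 64.8 and 79.1 (adjusted p = 0.00882). ATERDJ3B, a J-protein of the endoplasmic reticulum, went from 1606, 1827 and 1571 to 509, 614 and 559 (−1.57, adjusted p = 0.00785). In all 3 genes the groups were apart. Fes1B, a nucleotide exchange factor of HSP70, rose instead (108 ± 21.9 against 194 ± 28.2, adjusted p = 0.0269), and BZIP60, a transcription factor of the unfolded protein response, rose by 0.75 (694, 656 and 706 against 992, 1312 and 1177, adjusted p = 0.0222). Both of these rises ended under spike-in scaling and in 4 and 5 of the 6 omissions.

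Of 12 ubiquitin-specific proteases, which remove ubiquitin from proteins, 11 had negative changes on the deposited scale. Among them 3 fell on both scalings, beside 8.74% of nuclear genes. UBP23 had 1357, 1250.1 and 1186 in wild type and 207, 372 and 311 in the double mutant (4.38-fold lower, adjusted p = 0.00513), and UBP19 was 3.44-fold lower (adjusted p = 0.00348). The U-box ubiquitin ligases moved in both directions. Of 9 measured, 3 rose and 1 fell on both scalings, beside 2.98% and 8.74% of nuclear genes. PUB19, PUB26 and PUB25 rose, PUB26 from 178, 147 and 104 to 453, 393 and 391 (2.95-fold, adjusted p = 0.0165), while PUB49 fell from 439.6, 443 and 437 to 149, 105 and 124 (3.53-fold, adjusted p = 0.00823). Their median was 0.16 on the deposited scale and −0.57 under spike-in scaling, against −0.15 and −0.88 for all nuclear genes.

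Membrane traffic genes split by family. Of 12 ESCRT-III and related genes, whose products sort ubiquitinated membrane proteins into vesicles, 10 had negative changes. Among them 3 fell on both scalings, beside 8.74% of nuclear genes. The family median was −0.76 and was negative under all 4 scalings. VPS2.2 had 636, 831 and 994 in wild type and 252, 319.7 and 303 in the double mutant and averaged 1098 ± 212 in 35S:AGL15 (log2 change against wild type −1.48, adjusted p = 0.00583, and against 35S:AGL15 −1.90, adjusted p = 0.00482). Of 12 prenylated RAB acceptor genes, small proteins of the early secretory pathway, 4 rose on both scalings, beside 2.98% of nuclear genes. PRA1.B1 went from 1221, 1289 and 1127 to 2062, 2135 and 2142 (log2 change 0.80, adjusted p = 0.0163) and PRA1.A1 from 469, 460.3 and 410.3 to 794, 937 and 785 (0.91, adjusted p = 0.0236). Their family median was 0.65 on the deposited scale and −0.08 under spike-in scaling (all nuclear genes −0.15 and −0.88), where all 4 calls ended, as they also did in 4 to 6 of the 6 omissions of an array. Among 15 tetraspanin genes, 14 had positive changes on the deposited scale. TET9 was the one that rose on both scalings, beside 2.98% of nuclear genes. The tetraspanin median was 0.53 on the deposited scale and −0.21 under spike-in scaling, above that of all nuclear genes on both.

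In metabolic and transport families single members fell. Of 20 beta-glucosidase genes, 18 had negative changes on the deposited scale and 4 fell on both scalings, beside 8.74% of nuclear genes. Only 7 of the 20 lay above background on all 6 arrays, so many of these signs rest on dim values. The call of BGLU32, among the 4, ended with an offset of 32 and with low values raised to background, where its sign turned. The family median was −0.85 and was negative under all 4 scalings. BGLU46 had 109, 141 and 188 in wild type and 22.9, 33.6 and 21.3 in the double mutant (adjusted p = 0.00232), with 1 double mutant array above background. Among 14 glutathione transferases 3 fell, beside 8.74% of nuclear genes, GSTF4 with a log2 change of −2.77 (adjusted p = 0.0093, 1 double mutant array above background). Of 15 SWEET sugar transporters, SWEET10 rose while SWEET7 (88.5, 88.3 and 78.4 against 27.7, 22.3 and 22, adjusted p = 0.00326) and SAG29 (adjusted p = 0.00996) fell. Of 18 expansins, EXPA8 was the one called on both scalings. The SWEET and expansin calls are read beside the 2.98% of nuclear genes that rose and the 8.74% that fell, and nothing particular to these families is read from them.

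The 38 lists of genes with a known role in embryos, hormones, light and stress had 131 measured members, and 5 lists had none. On both scalings 11 members were lower and 2 higher, near the 8.74% and 2.98% of all nuclear genes. The median log2 change of the members was 0.04, and 0.07 after quantile normalization. In the auxin list GH3.17, an enzyme that attaches amino acids to auxin, fell (3201, 2866 and 2407 against 1465, 1785 and 1388, log2 change −0.87, adjusted p = 0.0185), a call that ended in 4 omissions of an array. GH3.9 was lower only on the deposited scale (−0.73, adjusted p = 0.0421, and −0.26 after quantile normalization). Of 7 Aux/IAA repressor genes, 6 had negative changes, IAA30 lying at 1185, 1151 and 1844 in wild type and 905, 1275 and 1178 in the double mutant (adjusted p = 0.452). IAA30 and IAA20 were lower in the double mutant than in 35S:AGL15 (log2 differences −1.49 and −1.27, adjusted p = 0.0113 and 0.011). Of the embryo regulators, BZIP53 was at 1304, 1428 and 1645 against 2844, 2218 and 2391 (0.77, adjusted p = 0.058) and EEL at a log2 change of −0.72 (adjusted p = 0.0841). OLEO3, an oil body protein gene, overlapped between genotypes at 288, 218 and 444 against 899, 429.6 and 772 (adjusted p = 0.0684, and 0.0452 after quantile normalization). AT3G01570 of the same list changed by 1.02 (adjusted p = 0.115). Of the 4 measured seed storage and oil body genes, 1 had a negative change and none was called on the deposited scale. The negative one, AT1G03890, lay above background on 2 wild type arrays and on no double mutant array. PAP85 changed by 0.96 (adjusted p = 0.164, and 0.0437 after quantile normalization).

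In the ethylene list EIN3, a master transcription factor of the response, fell (adjusted p = 0.00446). ATC, a floral repressor of the TFL1 family, fell from 825, 603 and 705 to 262, 234 and 249.7 (−1.51, adjusted p = 0.00872), and was higher in the double mutant than in 35S:AGL15 (log2 difference 1.37, adjusted p = 0.0166). LD, an autonomous pathway gene of flowering, had a log2 change of −3.11 (adjusted p = 0.00277, 2 of 3 double mutant arrays above background). Of 3 measured Calvin cycle genes, PRK fell (501, 655 and 472 against 241, 260.1 and 232, adjusted p = 0.00872), and SBPASE was lower only on the deposited scale (adjusted p = 0.0412). The third, RCA, averaged 3236 in wild type and 3127 in the double mutant (log2 change −0.05, adjusted p = 0.903). The 8 nuclear photosystem and light-harvesting genes had log2 changes from −0.45 to 0.66 on the deposited scale, none of them called. Their median was 0.27 there and −0.47 under spike-in scaling. SDH1-1, a succinate dehydrogenase subunit gene, changed by −1.09 (adjusted p = 0.0451, and 0.0464 after quantile normalization), a call that ended in all 6 omissions. Of 10 autophagy genes, ATG8F was lower on both scalings (adjusted p = 0.0466), also lost in all 6 omissions, and ATG8H only on the deposited scale (adjusted p = 0.0247). The calls of GH3.9, SBPASE and ATG8H on that scale ended in 6, 5 and 5 omissions.

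Changes followed the annotated length of the gene. Genes that fell on both scalings had a median length of 2877 bp and genes that rose 1606 bp, against 2107 bp for all nuclear genes. The share of genes that fell climbed from 2.19% in the shortest quintile to 16.0% in the longest, and the share that rose dropped from 5.09% to 0.981%. The median log2 change went from 0.15 to −0.48 over these quintiles on the deposited scale and from 0.35 to −0.19 after quantile normalization. Across the 13264 genes, which are not independent replicates, the Spearman correlation of length with log2 change was −0.27 on the deposited scale and −0.24 after quantile normalization. The median change in 35S:AGL15 against the same wild type arrays went from 0.04 to −0.31 over the same quintiles.

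**Figure D4:**
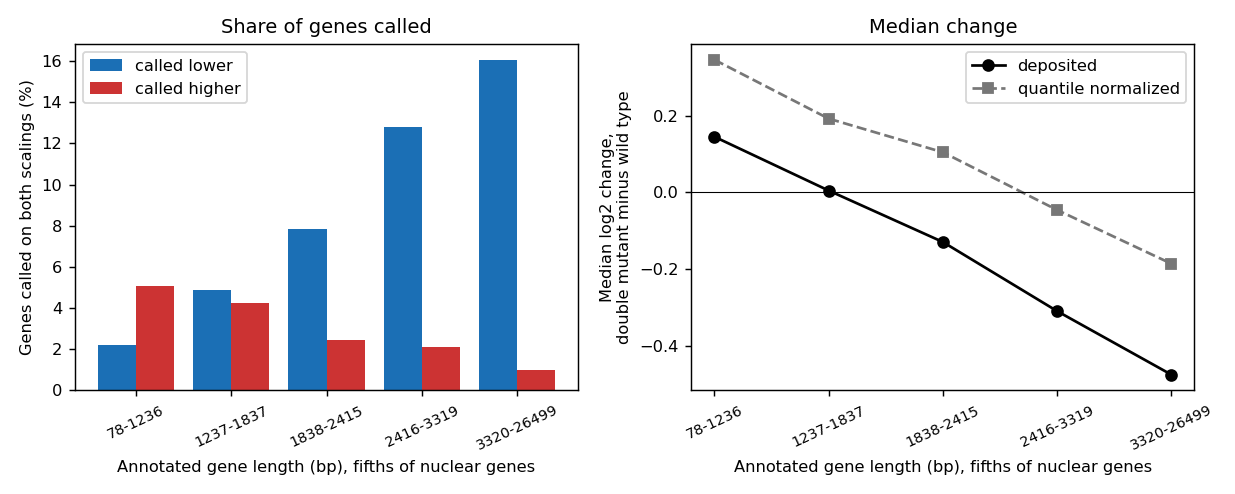
Nuclear genes are grouped into quintiles by annotated length in bp. One panel gives the percent of genes called lower or higher on both scalings, the other the median log2 change, double mutant minus wild type, on each scaling. Lower calls climb from 2.19% to 16.0% with length while higher calls drop from 5.09% to 0.981%.

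Length moved with the families too. Median lengths were 3074 bp for TRM, 2785 bp for IQ-domain, 4092 bp for DNA replication and repair, 4618 bp for chromatin remodelling, 3632 bp for splicing and 3950 bp for ubiquitin-specific protease genes. The prenylated RAB acceptor and tetraspanin genes had medians of 1148 and 1549 bp. When the trend of log2 intensity on length was removed from each array, lower calls went from 7 to 4 for TRM, from 6 to 5 for IQ-domain, from 12 to 7 for DNA replication, from 7 to 5 for chromatin remodelling, from 6 to 3 for ESCRT-III and from 4 to 2 for ubiquitin-specific protease genes. The splicing genes had 8 lower calls and 5 higher ones after this step, and lower calls of the co-chaperones went from 6 to 5. The histone and HMG-box genes had 5 lower calls before and after. Over all nuclear genes, lower calls went from 1943 to 1200 and higher calls from 462 to 1028, and nothing particular to a family is read from these counts. Beyond this, the part of length in these results was not tested.

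Of the 20 nearest measured genes around AGL18, by their order in the reference gene table, 2 fell on both scalings (INO80 and AT3G57470), and of the 20 around AGL15, 3 fell and 1 rose. These counts are read beside the 8.74% of nuclear genes that fell and the 2.98% that rose, and nothing particular to these neighbours is read from them. The rise was LEP, an ethylene response factor gene of leaf shape (457, 451 and 400.4 against 643, 626 and 729.9, log2 change 0.61, adjusted p = 0.0405), a call that ended in all 6 omissions of an array, with the replicate block, with the length trend removed and under spike-in scaling (−0.12). AT5G13560, AT5G13970 and AT5G13980 were the falls (−1.58, −1.36 and −1.26). The call of AT5G13980 ended in all 6 omissions, under median centring and with the length trend removed (−0.55, adjusted p = 0.1). Those of AT5G13560, AT5G13970 and AT3G57470 ended under no alternative run, and that of INO80 ended in 5 of the 6 omissions. For AGL15 itself no probe set is named in the annotation used here.

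Organelle genes are set apart from the nuclear ones. Of 23 mitochondrial probe sets 17 were higher on both scalings, and of 69 plastid probe sets 11 were higher and 7 lower. Of all 22746 probe sets, 3.2% were higher and 8.9% lower on both scalings. In the plastid, ndhD, a subunit gene of the NDH complex, rose from 1351, 1089.5 and 1276 to 7049, 4416 and 3914 (2.01, adjusted p = 0.00678). A block of chromosome 2 loci, AT2G07660 to AT2G07839, lies where the nuclear genome carries a copy of mitochondrial DNA. Of its 34 measured loci 12 rose on both scalings, beside 2.98% of nuclear genes. Signals from such copies and from the mitochondrial genes may not be told apart by these probe sets. Without this block, 383 nuclear genes rose and 1160 fell.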

How the data were processed

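Total RNA was purified from frozen cultures and 4 µg per sample was labelled, per the labels' protocols. The authors deposited each probe set's intensity on a linear scale. With 2% trimmed at either end, every array had a mean of 500, while medians differed between arrays. How probes were summarised, with which software and with what background correction, is not given in the sources used here.

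Intensities were converted to log2 without an offset. Of 22810 probe sets, 64 controls were left out. In limma 3.58.1 (R 4.3.3, lmFit and eBayes) a mean per genotype was fitted over the 9 arrays, the contrast was double mutant minus wild type, and two-sided p-values were adjusted by Benjamini-Hochberg over 22746 probe sets, with a threshold of 0.05. The contrast with 35S:AGL15 came from the same fit. Comparisons with wild type share the wild type arrays. In results per gene, the brightest probe set was used. By the annotation, 13513 probe sets had 1 gene, 503 had several and 8730 had none. Symbols, descriptions and lengths are from the reference gene table (TAIR10.1), used without coordinates. Where every array of the dimmer genotype was below background, the fold is the mean log2 intensity of the brighter one against the mean of, per array, the higher of the background level and the gene's own value. Values are means ± SD over 3 arrays, and the number of arrays limits their precision.

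The named genes were AGL18, the 12 largest rises and falls with a symbol, the same among locus codes with a description, up to 6 with the dimmer genotype below background, and up to 4 called members of each list, or the 2 brightest where none was called. The members, lists and families were chosen with earlier results of these data known. The correlation of deviations between same-numbered arrays ran from −0.01 to 0.01, so replicate numbers were not taken as pairs. The fit was tested on simulated data. Alternatives were quantile normalization, median centring, spike-in scaling, leaving out the dimmest 40%, a fit on 6 arrays, a replicate block, an intensity trend, array weights, an offset of 32, low values raised to background, leaving out each array, and, added after seeing the data, removal of the length trend. Sequences were not used here.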

Additional observations from a re-analysis of the deposited data

Results flagged for a closer look

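Control transcripts outside the comparison were brighter on the double mutant arrays than on the wild type arrays. The geometric mean of the 18 spike-in control probe sets was 1.66-fold higher in the double mutant (563 to 718 in wild type and 852 to 1374 in the double mutant). The probe set for 25S ribosomal RNA was 1.86-fold higher (7701 to 10550 against 15283 to 19836). In both cases every double mutant array lay above every wild type array. The 3′ and 5′ actin controls were 1.62-fold and 1.91-fold higher, and the 3′ and 5′ GAPDH controls 1.5-fold and 1.37-fold higher. In 35S:AGL15 the spike-in controls were 1.14-fold and the 25S control 1.34-fold higher than in wild type. The part of these differences in the results was not tested beyond the scaling on the spike-in controls.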

How the results depend on the processing

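The 12 largest falls named kept their call under every alternative run, and of the 12 largest rises STZ did. Probe sets called numbered 4304 (886 higher, 3418 lower) as reported. They numbered 9169 with array weights (2831 and 6338) and 6466 under spike-in scaling (76 and 6390). Higher and lower calls were 4082 and 1576 under median centring and 1633 and 2101 after quantile normalization. Higher calls were 1366 in the fit on 6 arrays, 1402 with an intensity trend, 1498 with an offset, 1392 without the dimmest 40% and 545 with the replicate block. Leaving out each array gave 1829 to 3147 calls, 268 to 533 higher and 1561 to 2674 lower. Nuclear genes higher on both scalings (395) numbered 1378 with array weights, 629 with the trend, 662 with the offset, 614 without the dimmest, 238 with the replicate block and 709 with the length trend removed, an alternative chosen after seeing the data, and 125 to 239 when each array was left out. Those lower (1160) numbered 2262 with array weights and 446 to 887 when each array was left out. The cause was not tested, except that leaving out arrays leaves fewer samples.

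The log2 change of AGL18 (−1.19) was no longer called with the length trend removed (−0.87), under median centring (−0.67), after quantile normalization (−0.67) or with the replicate block (−1.19, limma adjusted p = 0.0565), and ran from −1.45 to −1.02 when each array was left out. Same-numbered arrays did not deviate together (r from −0.01 to 0.01), so the block rests on numbers alone. Under spike-in scaling the sign turned for AT2G22370 (−0.00222), AT4G17260 (−0.0122), LSM3B (−0.0812), NRPB9A (−0.0299), scpl35 (−0.0177), LEP (−0.122) and AT3G57280 (−0.0169), by the shift common to all genes, and for BGLU32 (0.701) when low values were raised to background. Signal near background on the double mutant arrays limits the folds of dim genes.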
